A study of Homo sapiens with 8 samples.

Results

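L1CAM, NCAM1, NCAM2 and 7 related adhesion molecules of the immunoglobulin superfamily (NRCAM, CHL1, NFASC, ALCAM, CADM1, CNTN1 and MCAM) were followed in prostate cancer cells in which the transcription factor MYCL was raised or lowered. The 10 genes were taken by name from a count table of 78691 genes, and each name occurred once. RNA had been sequenced from C4-2B cells, a prostate adenocarcinoma line, and from NCI-H660 cells, a neuroendocrine prostate cancer line, with 2 libraries in each of 4 groups. C4-2B cells had been given either an empty lentiviral vector, the control, or a lentivirus that expressed MYCL from the EF1A promoter together with EGFP, the MYCL group. NCI-H660 cells carried a non-targeting short hairpin RNA (shCtrl) or a short hairpin RNA against MYCL (shMYCL). The series' design text names an adenoviral vector for the knockdown, while the treatment notes of the samples speak of transduced cells with stable knockdown. Each condition was made in a single line, so the differences below are between these cultures. The vectors differ between the lines, and the control cells carry a vector too.

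These proteins sit in the cell membrane with immunoglobulin domains facing outward, where they bind the same molecule or a related partner on a neighbouring cell. L1CAM, NRCAM, CHL1 and NFASC form the L1 family, which binds ankyrin and spectrin on the inside and guides axon growth and the build-up of nodes of Ranvier. NCAM1 and NCAM2 are the neural cell adhesion molecules proper, and NCAM1, also known as CD56, is a routine stain for neuroendocrine tumors.

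The libraries held between 15177071 and 32344170 counts. Mitochondrial genes took 9.67% and 9.63% of them in control C4-2B libraries and 10.2% and 10.7% with MYCL, and 3.52% and 3.50% in NCI-H660 with shCtrl and 3.83% and 3.69% with shMYCL. This share differed most between the lines, and within each line the groups did not overlap either. Its part in the results was not tested. MYCL itself was at 5.47 and 6.39 TPM (transcript abundance scaled by length and to a fixed library total) in control C4-2B cells and at 1363 and 1435 TPM after its overexpression. In NCI-H660 cells it was at 64.3 and 48.2 TPM with shCtrl and at 6.18 and 7.0 TPM with shMYCL. The labels fitted the 2 lines: all 9 neuroendocrine markers were higher and all 8 luminal markers lower in control NCI-H660 than in control C4-2B libraries by the test used below. The titles speak of biological replicates for the C4-2B control group only, so p-values measure the spread between these libraries, which may be technical. The smallest p of an exact permutation test of 2 against 2 libraries is 0.333, and the tests therefore lean on a spread estimated jointly over many genes by edgeR.

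Genomic sequence before the start of the gene is shown for ALCAM and MCAM, both of which rose with MYCL in C4-2B cells and have a window free of annotated exons. The general E-box is written CANNTG, and CACGTG is its canonical form for MYC family proteins. Each window holds the 250 bases upstream of a RefSeq start on GRCh38.p14, printed 5′ to 3′ on the strand of the gene, with matches to CANNTG on either strand in capitals. The ALCAM window lies at chr3:105366659-105366908 on the plus strand and the MCAM window at chr11:119317131-119317380 on the minus strand.
ALCAM: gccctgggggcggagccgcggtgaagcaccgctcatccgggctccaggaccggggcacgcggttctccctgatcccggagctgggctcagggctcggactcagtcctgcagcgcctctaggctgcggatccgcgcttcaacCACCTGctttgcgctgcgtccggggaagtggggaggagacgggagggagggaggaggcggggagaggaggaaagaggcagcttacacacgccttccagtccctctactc
MCAM: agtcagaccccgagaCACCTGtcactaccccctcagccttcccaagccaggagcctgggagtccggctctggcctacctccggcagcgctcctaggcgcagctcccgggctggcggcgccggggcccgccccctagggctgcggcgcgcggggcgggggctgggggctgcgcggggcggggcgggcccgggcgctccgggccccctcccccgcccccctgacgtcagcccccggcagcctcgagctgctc
Both windows held a single CANNTG match, CACCTG, which is not the canonical MYC form. Binding of MYCL to it was not tested. None of the windows found for 8 of the 10 genes held CACGTG, which occurred in 6.32% of 34943 windows of the same length, while CANNTG occurred in 61.8% of them. The windows of L1CAM, NFASC and NRCAM held between 1 and 3 CANNTG matches each, 1 of the 2 CNTN1 windows held 2, and those of CHL1 and NCAM2 held none, so called and uncalled genes were found with the motif. NCAM1 and CADM1 were not matched. The MCAM window lies inside the longer gene interval that GENCODE annotates, since the RefSeq start is downstream of the outermost GENCODE start.

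The 2 lines carried almost separate sets of these molecules. Control C4-2B cells held NCAM2 and ALCAM above 20 TPM and the other 8 genes below 1 TPM. Control NCI-H660 cells held 9 of the 10 genes above 10 TPM and NCAM2 at 0 and 0.0570 TPM. Summed over the 10 genes, the level was between 54.9 and 60.4 TPM in the 4 C4-2B libraries and between 430.2 and 519.8 TPM in the 4 NCI-H660 libraries. All 10 genes passed edgeR's quasi-likelihood test between the control libraries of the lines (called where the adjusted p is under 0.05 and the log2 fold change reaches 0.5 in size), 9 of them higher in NCI-H660 and 1 lower. The background was high, since 71.6% of the 18748 genes tested were called in this comparison, 37.4% higher and 34.2% lower. None of the 10 genes overlapped between the lines, and neither did 90.1% of all genes tested. The median log2 fold change was 7.49 over the 10 genes and 0.040 over all genes tested. That median includes genes kept for testing only through the line where they are high, which makes large values likely. For CHL1 and NCAM1, with no count in C4-2B, the size of the fold change is not measured. With at least 10 counts required in every library, 4 of the 10 genes were tested, and all 4 were called higher. Line, vector and culture cannot be told apart here, and in bulk RNA fewer expressing cells cannot be told apart from less RNA per cell.

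**Figure D1:**
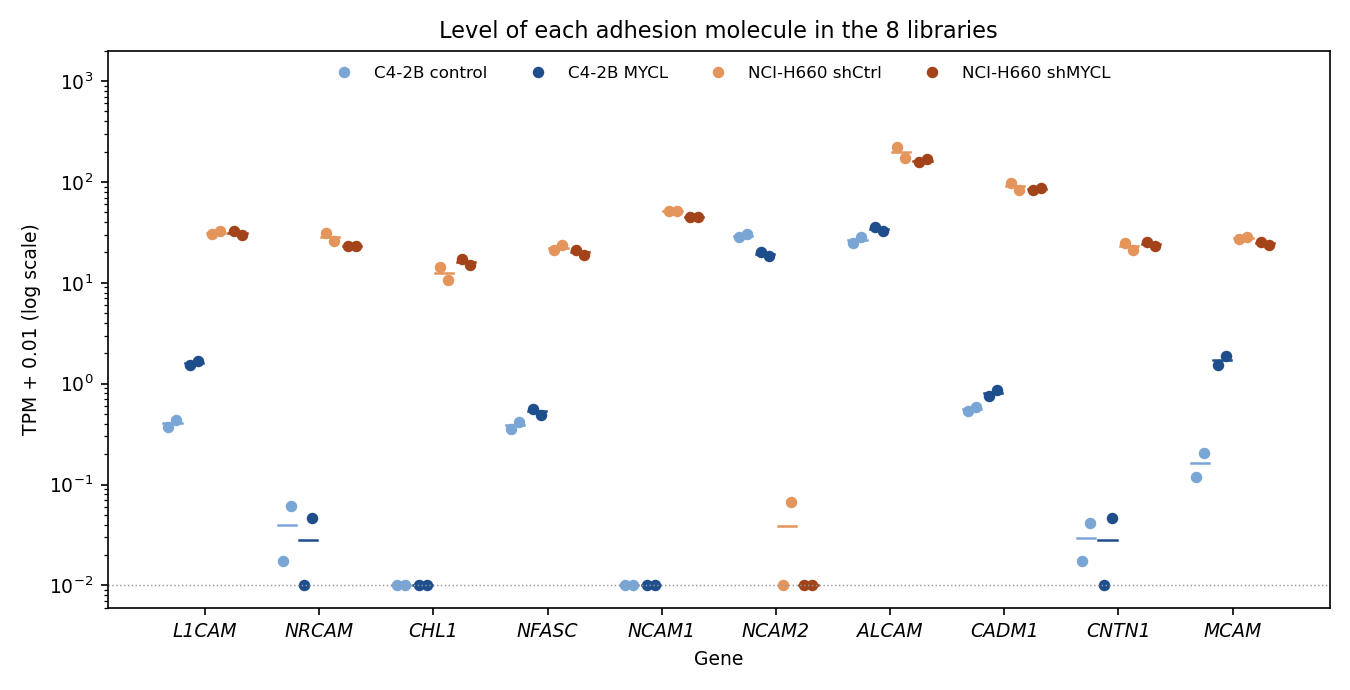
TPM of each of the 10 genes in the 8 libraries, with 0.01 added so that 0 can be drawn on the logarithmic axis (dotted line); points are libraries, short bars are group means, and colours are the 4 groups (n = 2 each). NCAM2 is high in C4-2B alone, CHL1 and NCAM1 lie at 0 in all 4 C4-2B libraries, and L1CAM and MCAM are the genes whose C4-2B MYCL points stand well above the control points.

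Positions are those of GENCODE 44 on GRCh38. Within the L1 family, L1CAM (chrX:153861514-153886173, minus strand) was at 0.366 and 0.429 TPM in control C4-2B and at 30.5 and 32.5 TPM in control NCI-H660 libraries. The difference was 5.84 on the log2 scale (SE 0.15, edgeR adjusted p = 1.95e-11). NFASC (chr1:204828651-205022822, plus strand), whose product clusters sodium channels at nodes and axon initial segments, was at 0.348 and 0.407 TPM in control C4-2B and 21.2 and 23.6 TPM in control NCI-H660 libraries, a log2 difference of 6.15 (SE 0.18, edgeR adjusted p = 4.47e-11). The libraries of the lines did not overlap for either gene.

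NRCAM (chr7:108147623-108456717, minus strand), the neuronal cell adhesion molecule, had 1 and 5 counts in control C4-2B and 1909 and 1815 counts in control NCI-H660 libraries. The ratio after scaling for library size was 883-fold, with a 95% interval from counting error alone of 405 to 2407. CHL1 (chr3:196763-409417, plus strand), the close homolog of L1, had no count in any C4-2B library and 991 and 838 counts in control NCI-H660 libraries, at least 426-fold higher against a floor of 3 counts per library. A count of 0 allows up to 3 counts in these libraries, and neither that floor nor the interval covers the spread between cultures.

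The 2 NCAM genes went opposite ways between the lines. NCAM1 (chr11:112961275-113278436, plus strand) had no count in any C4-2B library and 2666 and 2946 counts in control NCI-H660 libraries, at least 1298-fold higher. NCAM2 (chr21:20998409-21543329, plus strand), known from olfactory neurons, had 3986 and 3092 counts in control C4-2B and 0 and 3 counts in control NCI-H660 libraries. That ratio was 1659-fold, with a 95% counting interval of 567 to 8046, and NCAM2 was the only one of the 10 genes that was lower in NCI-H660.

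ALCAM (chr3:105366909-105576900, plus strand), the activated leukocyte cell adhesion molecule CD166, was the only gene of the 10 above 20 TPM in both lines. It was at 25.0 and 28.3 TPM in control C4-2B and 220.1 and 173 TPM in control NCI-H660 libraries, a log2 difference of 2.30 (SE 0.11, edgeR adjusted p = 3.00e-09). CADM1 (chr11:115169218-115504957, minus strand), which joins neighbouring cells and organizes synapses, was at 0.521 and 0.577 TPM in control C4-2B and 98.7 and 83.1 TPM in control NCI-H660 libraries. The log2 difference of CADM1 was 7.96 (SE 0.17, edgeR adjusted p = 6.43e-12), so ALCAM differed least between the lines and CADM1 far more.

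CNTN1 (chr12:40692439-41072415, plus strand), contactin 1, a lipid-anchored partner of L1 family members and neurofascin at the paranode, had 1 and 3 counts in control C4-2B and 1317 and 1259 counts in control NCI-H660 libraries. The ratio was 916-fold, with a 95% counting interval of 357 to 3364. MCAM (chr11:119308529-119321521, minus strand), the melanoma cell adhesion molecule CD146, was at 0.109 and 0.194 TPM in control C4-2B and 27.5 and 28.3 TPM in control NCI-H660 libraries, a log2 difference of 7.02 (SE 0.21, edgeR adjusted p = 5.63e-11). On log2(TPM + 1) values the median gene moved by 0.57 between the lines and the calls over all genes split into 8530 higher and 3415 lower, against 7014 and 6413 from the counts. On that scale 9 of the 10 genes were still higher in NCI-H660 and NCAM2 still lower, and ALCAM had a difference of 2.83, beside the shift of 0.57.

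By TPM, the order in control C4-2B cells was NCAM2, ALCAM, CADM1, L1CAM, NFASC and MCAM, followed by NRCAM and CNTN1 with a few counts and CHL1 and NCAM1 with none. The libraries of L1CAM and NFASC overlapped in that order, as did those of NRCAM and CNTN1. The place of CADM1 depends on the scale, since it had 19 and 22 counts, against 48 and 33 for L1CAM and 30 and 36 for NFASC. In control NCI-H660 cells the order was ALCAM, CADM1, NCAM1, L1CAM, NRCAM, MCAM, CNTN1, NFASC, CHL1 and NCAM2. There, the levels of L1CAM and NRCAM, of NRCAM and MCAM, and of CNTN1 and NFASC did not differ beyond the spread between libraries.

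In C4-2B cells, MYCL overexpression was accompanied by higher MCAM, L1CAM and ALCAM, while NCAM1 and CHL1 had no count with or without MYCL. MCAM rose 13.3-fold, L1CAM 4.85-fold and ALCAM 1.47-fold. NCAM2 was 0.729 times its control level, short of the minimum change set for a call. These 3 calls were out of 6 genes tested, beside 19.9% of all 16866 genes tested called in either direction, 11.8% higher and 8.12% lower. L1CAM and ALCAM are both drawn in an axon guidance heatmap that the study made from these same libraries, so their calls are not independent evidence of a direction. The median log2 fold change was 0.85 over the 6 genes tested and -0.0017 over all genes tested. The number of calls and that median include MCAM, whose control counts were too low to pass the filter on low counts. MCAM was kept for testing only through the MYCL libraries, where it is high, which makes a large value likely.

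Counts of MCAM were 9 and 11 without and 77 and 97 with MYCL, or 0.277 and 0.462 against 4.18 and 5.55 normalized CPM (counts scaled to the library size). Both MYCL libraries lay above both control libraries, and the log2 fold change was 3.73 (SE 0.39, 95% confidence interval 2.85 to 4.62, edgeR adjusted p = 0.000213). Leaving out single libraries gave log2 values of 3.37 to 4.10. Its control level rests on few counts, and 6.86% of its exon bases overlap CBL on the opposite strand, whose reads cannot be told apart where counting ignores strand. MCAM is also a marker of endothelial cells. In C4-2B libraries KDR was at 0 TPM and PECAM1 at most at 0.085 TPM. Of the 5 endothelial markers 2 were tested, VWF and CDH5, with 0 called by edgeR. VWF was at 0.921 to 1.02 TPM in the control and 1.06 to 1.08 TPM in the MYCL libraries. CDH5 was at 0.022 to 0.272 TPM in the control and 0.230 to 0.405 TPM in the MYCL libraries (log2 fold change 1.59, SE 0.88). The summed endothelial markers were between 1.06 and 1.26 TPM in the control and between 1.40 and 1.52 TPM in the MYCL libraries, and their part in the MCAM result was not tested.

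Other markers moved in the same libraries. Of 8 luminal markers 3 fell with MYCL, among them KLK3 and SLC45A3 with log2 fold changes of -0.52 and -1.55, and 0 were called higher. TMPRSS2 went up by 0.39 (edgeR adjusted p = 0.00346), under the minimum change, and HOXB13 was at -0.054. The summed level of the 8 was 2225 to 2226 TPM in the control and 1353 to 1499 TPM in the MYCL libraries. None of the 9 neuroendocrine markers was called by edgeR, with 2 tested and sums of 7.08 to 7.11 and 7.27 to 7.39 TPM. The lysosomal gene CD68, 1 of 3 immune markers, was called higher (log2 fold change 1.53), with 8.3 and 10.8 TPM in the control and 23.9 and 25.6 TPM in the MYCL libraries, while the leukocyte marker PTPRC was at 0. Of 6 fibroblast markers COL1A1 was called higher (log2 fold change 0.74), the sum was 2.57 to 2.90 and 3.70 to 4.35 TPM, and COL1A2, DCN, LUM and PDGFRA were at 0. The part of these in the adhesion genes was not tested.

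L1CAM was at 1.48 and 1.39 normalized CPM without and at 6.45 and 7.49 with MYCL. The groups did not overlap, as for 69.2% of all genes tested, and the log2 fold change was 2.28 (SE 0.25, edgeR adjusted p = 0.000273). It ranged from 2.17 to 2.39 when single libraries were left out. On log2(TPM + 1) values without a filter on low levels the call was lost, at 0.89 and a limma adjusted p of 0.0516. A protein-coding gene annotated on the same strand overlaps 6.04% of the L1CAM exon bases.

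ALCAM was at 87.7 and 101 normalized CPM without and at 139 and 137 with MYCL. The libraries did not overlap, and the log2 fold change of 0.55 (SE 0.085, edgeR adjusted p = 0.00140) lay close to the minimum of 0.5. Without C4-2B control replicate 1 it was 0.44 and no longer called. On log2(TPM + 1) values it was 0.36 (limma adjusted p = 0.0286), again under the minimum, on a scale where the median gene moved by -0.14. That scale also changed the split over all genes to 1006 higher and 1997 lower calls, against 1986 and 1369 from the counts.

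NCAM2, the neural adhesion molecule that C4-2B cells do carry, was at 123 and 129.9 normalized CPM without and 91.9 and 92.1 with MYCL. Both MYCL libraries lay below both control libraries, as for 34.7% of all genes tested. The log2 fold change was -0.46 (SE 0.072, edgeR adjusted p = 0.00159), under the minimum change. It passed that minimum without C4-2B control replicate 1 (-0.51) and on log2(TPM + 1) values (-0.57, limma adjusted p = 0.00469), of which -0.14 was the shift of the median gene.

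NFASC had 30 and 36 counts in the control and 38 and 35 counts in the MYCL libraries, a log2 fold change of 0.75 (95% confidence interval -0.12 to 1.62, edgeR adjusted p = 0.163). A fit of all 4 groups together called it, at 0.78 and an edgeR adjusted p of 0.0419. CADM1 had 19 and 22 counts in the control and 35 and 17 counts in the MYCL libraries, a log2 fold change of 0.94 (95% confidence interval -0.18 to 2.07, edgeR adjusted p = 0.173). Its MYCL libraries stood in one order by counts and in the other by TPM, 0.748 and 0.857. Both intervals hold no change as well as changes above the minimum, so neither gene could be settled at this depth. NRCAM had 1 and 5 counts in the control and 0 and 3 in the MYCL libraries, and CNTN1 had 1 and 3 in the control and 0 and 3 with MYCL, which the filter on low counts left out. Without that filter 8 of the 10 genes were tested, NRCAM and CNTN1 among them, and the number called was again 3, with neither of these among them.

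**Figure D2:**
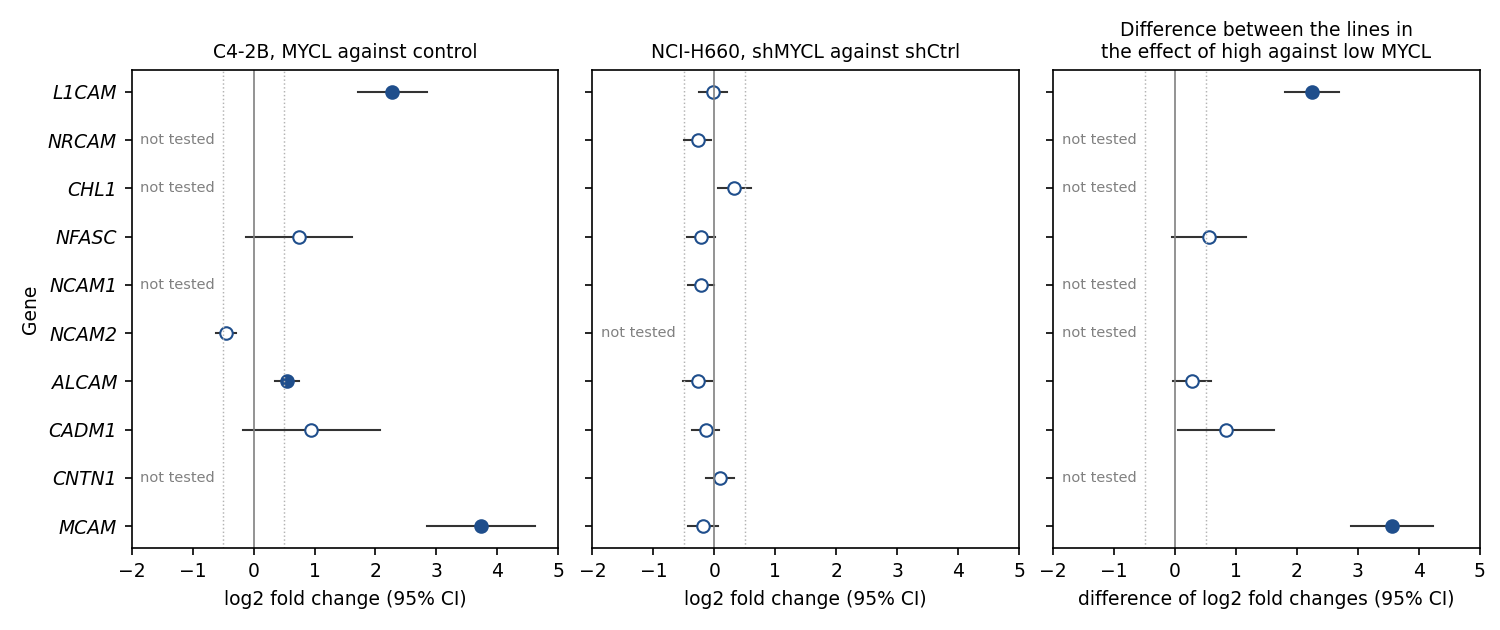
Log2 fold change of each gene with its 95% confidence interval from edgeR's quasi-likelihood test, in C4-2B (left), in NCI-H660 (middle) and as the difference between the lines (right); filled points passed an adjusted p under 0.05 and a minimum of 0.5 (dotted lines), open points did not. MCAM and L1CAM stand far to the right in C4-2B, while all 9 genes tested in NCI-H660 lie between -0.28 and 0.33.

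The make-up of the 10 genes shifted in C4-2B cells while their summed TPM did not separate the groups. That sum holds for TPM only, a scale on which the median gene moved by -0.14 with MYCL as log2(TPM + 1). NCAM2 held between 50.2% and 52.1% of the summed TPM in the control libraries and between 32.9% and 33.6% in the MYCL libraries. ALCAM held between 45.5% and 47.0% in the control libraries and between 58.4% and 59.3% in the MYCL libraries, so the most abundant of these transcripts changed from NCAM2 to ALCAM. MCAM moved up to the third place with 1.51 and 1.87 TPM, next to L1CAM with 1.51 and 1.67 TPM, and the libraries of these genes overlapped. Measured against control NCI-H660 cells, L1CAM moved from 1.26% to 5.05% of the NCI-H660 TPM level and MCAM from 0.545% to 6.07%. ALCAM moved from 13.6% to 17.5% on the same scale, and each of the other 6 genes that NCI-H660 cells carry stayed below 2.5%.

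**Figure D3:**
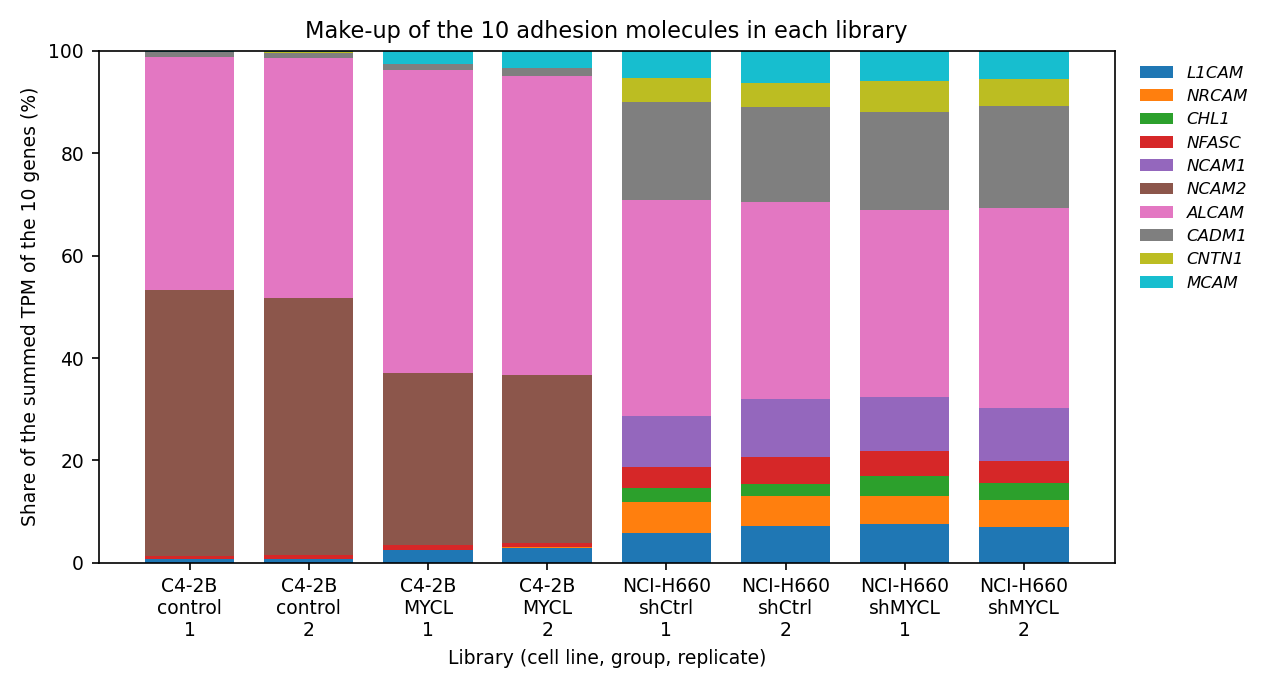
Share of each gene in the summed TPM of the 10 genes (stacked to 100%) in each of the 8 libraries. NCAM2 and ALCAM fill the C4-2B bars, with the larger share going to NCAM2 in the control and to ALCAM in the MYCL libraries, whereas the 4 NCI-H660 bars are shared among 9 genes.

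In NCI-H660 cells, knockdown of MYCL was accompanied by small differences in these molecules, none of which was called. Of 9 genes tested, edgeR and DESeq2 each called 0, beside 16.2% of 16980 genes called by edgeR, 7.18% higher and 8.99% lower. By edgeR 4 genes had an unadjusted p under 0.05 (NRCAM, CHL1, NCAM1 and ALCAM), beside 37.1% of all genes tested. The median log2 fold change was -0.18 over the 9 genes and -0.0029 over all genes. The groups did not overlap for 7 of the 9, beside 63.1% of all genes tested. For 6 of these both shMYCL libraries lay below both shCtrl libraries, which 32% of all genes tested did. The fold changes ranged from -0.28 for NRCAM to 0.33 for CHL1.

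L1CAM was at 87.2 and 98.5 normalized CPM with shCtrl and 95.1 and 88.0 with shMYCL, and the groups overlapped. Its log2 fold change of -0.020 had a 95% confidence interval of -0.25 to 0.21, which leaves out a change of 0.5 in either direction. NFASC was at 89.7 and 99.6 normalized CPM with shCtrl and 84.9 and 77.4 with shMYCL (log2 fold change -0.22, SE 0.11, edgeR adjusted p = 0.148).

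NRCAM was at 113 and 98.2 normalized CPM with shCtrl and 87.6 and 86.6 with shMYCL, a log2 fold change of -0.28 (SE 0.11, edgeR adjusted p = 0.0731). CHL1 was at 58.5 and 45.3 normalized CPM with shCtrl and 68.7 and 61.7 with shMYCL, a log2 fold change of 0.33 (SE 0.13, edgeR adjusted p = 0.0715). CHL1 was the only gene of the 9 whose shMYCL libraries both lay above the shCtrl libraries. Without NCI-H660 shCtrl replicate 1, which held the higher control value, its log2 fold change was 0.53 and it was called (edgeR adjusted p = 0.00232).

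NCAM1 was at 157 and 159 normalized CPM with shCtrl and 134 and 138 with shMYCL. Its libraries did not overlap, and the log2 fold change was -0.22 (SE 0.10, 95% confidence interval -0.43 to -0.0025, edgeR adjusted p = 0.130). Leaving out single libraries gave log2 values of -0.24 to -0.19, the narrowest range of the 9 genes. NCAM2 had 0 and 3 counts with shCtrl and 0 and 0 with shMYCL and was not tested. The study also measured NCAM1 by RT-qPCR and reported lower levels after MYCL knockdown, so the gene was not picked independently of these cultures. Among the 9 neuroendocrine markers 2 fell in the same libraries, INSM1 with a log2 fold change of -0.65, the other 7 were not called, and the sum was 1441 to 1625 TPM with shCtrl and 1193 to 1305 TPM with shMYCL.

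Markers of other cells were low in NCI-H660, with exceptions. COL1A2, 1 of 6 fibroblast markers, fell from 34.7 and 39.8 to 22.4 and 22.8 TPM, and the fibroblast sum was 39.4 to 44.7 and 26.3 to 27.1 TPM, with DCN at 0. CDH5, 1 of 5 endothelial markers, fell (log2 fold change -0.91), with sums of 3.01 to 3.86 and 1.07 to 2.67 TPM. The glial marker GFAP rose from 0.270 and 0.320 to 0.780 and 1.06 TPM, and 1 of the 4 luminal markers tested was called higher, within luminal sums of 3.98 to 4.04 and 4.48 to 4.73 TPM. The part of these markers in the values of the adhesion genes was not tested.

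ALCAM was at 569.6 and 478 normalized CPM with shCtrl and 418 and 451 with shMYCL (log2 fold change -0.27, SE 0.11, edgeR adjusted p = 0.0891). CADM1 was at 216 and 194 normalized CPM with shCtrl and 179 and 192 with shMYCL, a log2 fold change of -0.14. MCAM was at 50.5 and 54.8 normalized CPM with shCtrl and 48.2 and 44.6 with shMYCL, a log2 fold change of -0.18 with a 95% confidence interval of -0.42 to 0.059. For these 3 genes both shMYCL libraries lay below both shCtrl libraries by less than the test could separate. CNTN1 was at 77.7 and 68.1 normalized CPM with shCtrl and 77.9 and 77.4 with shMYCL, and its groups overlapped. The order of the genes by TPM began with ALCAM, CADM1, NCAM1 and L1CAM and ended with NFASC, CHL1 and NCAM2 in both NCI-H660 groups.

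Whether higher MYCL went with a different change in the 2 lines was tested directly for the 5 genes that passed the filter on low counts in both (L1CAM, NFASC, ALCAM, CADM1 and MCAM). The effect of high against low MYCL in C4-2B cells was compared with shCtrl against shMYCL in NCI-H660 cells, in a fit of all 8 libraries. L1CAM and MCAM differed between the lines, both larger in C4-2B, beside 17.9% of 19605 genes called in this test, 9.59% higher and 8.33% lower. The difference was 2.25 for L1CAM (SE 0.21, edgeR adjusted p = 2.50e-05) and 3.56 for MCAM (SE 0.31, edgeR adjusted p = 1.76e-05). On log2(TPM + 1) values the calls over all genes in this test split into 1054 higher and 1902 lower, against 1880 and 1633 from the counts, and L1CAM (0.88) and MCAM (1.05) remained called. Both had far lower control levels in C4-2B than in NCI-H660 cells, MYCL rose from 5.47 and 6.39 to 1363 and 1435 TPM in C4-2B and fell from 64.3 and 48.2 to 6.18 and 7.0 TPM in NCI-H660 cells, and the vectors differed. The part of these features in the difference was not tested.

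For ALCAM the difference was 0.28 (95% confidence interval -0.041 to 0.60), so its rise in C4-2B cells was not shown to differ from the shCtrl against shMYCL difference in NCI-H660 cells. NFASC gave 0.56 (-0.054 to 1.17) and CADM1 0.84 (0.042 to 1.63), neither called. Without C4-2B MYCL replicate 2, which had the fewer CADM1 counts, the CADM1 difference was 1.24 and called (edgeR adjusted p = 0.0381). The comparisons share libraries with each other, so the values of a gene in them are not independent.

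Other immunoglobulin-family adhesion molecules (40 genes, chosen from general knowledge) were measured beside these 10. In C4-2B cells 22 of them were tested, of which 4 rose and 2 fell with MYCL, beside 11.8% and 8.12% of all genes tested. BCAM, the Lutheran blood group antigen that binds laminin, rose from 8.03 ± 0.756 to 14.1 ± 1.87 normalized CPM (SD, n = 2), and ICAM1, a ligand of leukocyte integrins, from 18.9 ± 1.68 to 29.1 ± 3.0. IGSF9, a homolog of the fly dendrite protein Turtle, fell from 9.2 ± 0.234 to 3.26 ± 0.241, and NECTIN1, of adherens junctions, from 58.5 ± 3.58 to 39.6 ± 0.521 normalized CPM. On log2(TPM + 1) values ICAM1 fell short of the minimum change (0.43).

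In NCI-H660 cells 31 of the 40 were tested, of which 4 rose and 5 fell with shMYCL, beside 7.18% and 8.99% of all genes tested. IGSF9 rose there (log2 fold change 0.65, SE 0.12, edgeR adjusted p = 0.000977), so its level was lower in the MYCL-high group of each line. NEGR1, an IgLON family member, rose by 0.62 on the log2 scale, and IGSF8, a tetraspanin partner, and IGSF11, an adhesion molecule of synapses, changed by -0.78 and -0.76. NEGR1 was 0.44 and not called without either NCI-H660 shCtrl replicate 2 or NCI-H660 shMYCL replicate 2, and NEGR1 and IGSF11 were not called on log2(TPM + 1) values. Between the control lines 22 of 31 tested were higher in NCI-H660 and 6 lower, beside 37.4% and 34.2% of all genes tested. LSAMP, the limbic system-associated IgLON, had 0 and 0 counts in control C4-2B and 2146 and 1978 in control NCI-H660 libraries, and SDK1, the retinal synapse molecule sidekick 1, had 0 and 0 against 1283 and 1522. CNTN3 had 178 and 160 counts in control C4-2B and 0 and 0 in control NCI-H660 libraries, and IGLON5 had 106 and 83 against 0 and 1, so these 2 genes shared the direction of NCAM2.

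The cytoplasmic partners of these molecules include ankyrins, spectrins, ERM proteins and scaffolds (24 genes). In C4-2B cells 23 were tested, 2 rose and 1 fell, against 19.9% of all genes called. ANK1, erythrocyte ankyrin, rose from 4.71 ± 0.776 to 19.3 ± 0.489 normalized CPM (log2 fold change 2.03, SE 0.15, edgeR adjusted p = 4.53e-05). With shMYCL in NCI-H660 cells 22 were tested, 5 rose and 2 fell, against 16.2% of all genes called. EPB41L2, a protein 4.1 family member, rose from 1.73 ± 0.533 to 5.62 ± 1.99 normalized CPM. SPTAN1, the common alpha-spectrin, rose from 279 ± 5.11 to 461 ± 56.7. ANK2, neuronal ankyrin-B, and RDX, the ERM protein radixin, changed by -0.69 and -0.55 on the log2 scale.

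Without NCI-H660 shCtrl replicate 1 the changes of ANK2 (-0.40) and RDX (-0.44) were under the minimum, as was that of RDX without NCI-H660 shMYCL replicate 1 (-0.48), and DESeq2 gave ANK2 an adjusted p of 0.0999. EPB41L2 and ANK2 were not called on log2(TPM + 1) values (limma adjusted p = 0.0651 and 0.0683). Between the control lines 12 of 22 adaptors were higher in NCI-H660 and 6 lower, beside 37.4% and 34.2% of all genes tested. SPTBN1, the common beta-spectrin, had 12 and 12 counts in control C4-2B and 4519 and 4275 in control NCI-H660 libraries, and ANK2 had 36 and 12 against 3824 and 2896. MSN, the ERM protein moesin, was the reverse with 2947 and 2368 against 6 and 6 counts, as was EPB41L2 with 2326 and 1650 against 23 and 39.

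Ligands, co-receptors and signalling partners (35 genes) followed, of which 18 were tested in C4-2B cells, with 4 higher and 0 lower by edgeR, beside 11.8% and 8.12% of all genes tested. FYN, a Src-family kinase that acts downstream of NCAM1, rose from 1.14 ± 0.00216 to 5.81 ± 1.16 normalized CPM (log2 fold change 2.35, SE 0.29, edgeR adjusted p = 0.000457). FGFR1, a receptor tyrosine kinase that NCAM1 and L1CAM can engage, rose from 9.5 ± 1.3 to 16.5 ± 0.484. In NCI-H660 cells 30 were tested, 5 rose and 3 fell with shMYCL, against 16.2% of all genes called. TNC, the matrix protein tenascin-C, rose from 52.9 ± 2.27 to 179 ± 22.4 normalized CPM, and the growth factor pleiotrophin, PTN, from 11.3 ± 1.59 to 29.5 ± 0.980. GFRA1, a receptor for GDNF that can pair with NCAM1, fell from 11.6 ± 1.71 to 4.02 ± 0.0984 normalized CPM.

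LGALS3, a galectin, changed by -0.96 on the log2 scale, and the call was lost without NCI-H660 shCtrl replicate 1 (-0.70, edgeR adjusted p = 0.0744). On log2(TPM + 1) values GFRA1 (limma adjusted p = 0.0878) and LGALS3 (0.556) were not called. Between the control lines 21 of 31 of these genes were higher in NCI-H660 and 5 lower, beside 37.4% and 34.2% of all genes tested. VCAN, the proteoglycan versican, had 0 and 0 counts in control C4-2B and 529 and 475 in control NCI-H660 libraries. CNTNAP4, a contactin-associated protein, had 400 and 248 counts in control C4-2B and 0 and 0 in control NCI-H660 libraries, the direction of NCAM2. CNTNAP2 had 104 and 74 against 29 and 22 counts, or means of 3.33 against 1.37 normalized CPM. On log2(TPM + 1) values without a filter the CNTNAP2 call was lost (-0.23, limma adjusted p = 0.2365).

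Enzymes that add polysialic acid or cut the ectodomain (20 genes) formed the last list. In C4-2B cells 12 were tested, 2 rose and 1 fell, against 19.9% of all genes called. ST8SIA4, a polysialyltransferase whose main substrate is NCAM1, rose from 4.91 ± 0.951 to 9.93 ± 0.218 normalized CPM in cells with no NCAM1 count. MMP14, a membrane-bound metalloproteinase, rose from 2.49 ± 1.22 to 5.87 ± 0.213, and MMP16, of the same family, fell from 95.4 ± 2.49 to 55.2 ± 2.78 normalized CPM. The MMP14 call was lost without C4-2B control replicate 1 (0.79, edgeR adjusted p = 0.0703), and on log2(TPM + 1) values MMP14 and ST8SIA4 had limma adjusted p-values of 0.0703 and 0.111. In NCI-H660 cells 17 were tested, 1 rose and 1 fell, against 16.2% of all genes called. ADAM10, a sheddase of L1CAM and NCAM1, fell from 279 ± 6.55 to 177 ± 14.6 normalized CPM (log2 fold change -0.66, SE 0.11, edgeR adjusted p = 0.000373).

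ST8SIA5, a ganglioside sialyltransferase, had 48 and 88 counts with shCtrl and 165 and 103 with shMYCL, and it was called higher by its counts, but its sign turned on log2(TPM + 1) values (-0.022). The call was also lost without NCI-H660 shMYCL replicate 1 (0.80, edgeR adjusted p = 0.08). Between the control lines 10 of 17 were higher in NCI-H660 and 2 lower, beside 37.4% and 34.2% of all genes tested. PLAU, the plasminogen activator urokinase, had 0 and 0 counts in control C4-2B and 7602 and 9037 in control NCI-H660 libraries. ST8SIA2, the other polysialyltransferase, had 0 and 0 against 257 and 332 counts, and PSEN2, of the gamma-secretase complex, was the reverse with 684 and 510 against 140 and 154.

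**Figure D4:**
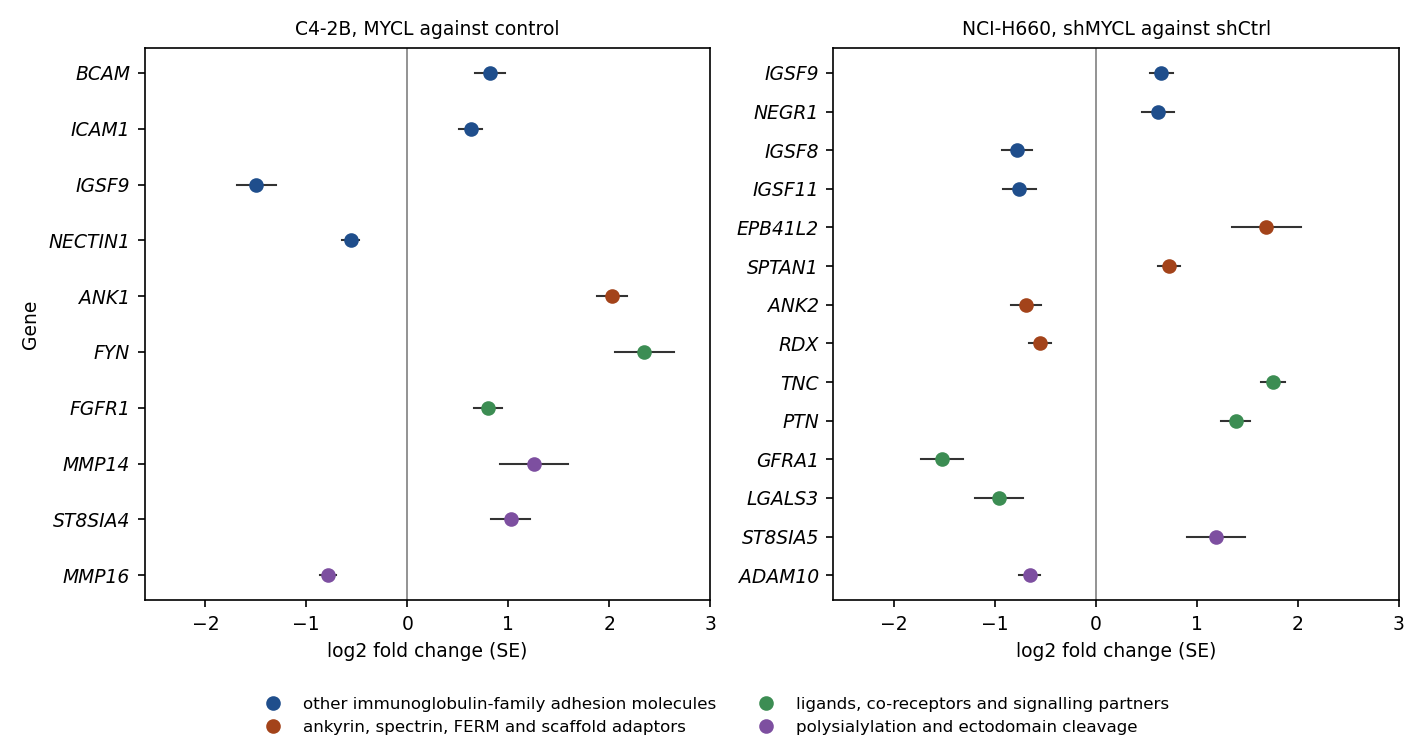
Log2 fold change (point) and standard error (line) of called genes with large changes in each of 4 lists of related genes, in C4-2B with MYCL (left) and in NCI-H660 with shMYCL (right), coloured by list. IGSF9 lies on the left in C4-2B and on the right in NCI-H660, and FYN and ANK1 show the largest rises in C4-2B.

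Across the 8 libraries, the genes whose log2 CPM followed L1CAM most closely among 13029 genes were GSDME, LGALS3BP and FYN, with Pearson's r of 0.999, 0.999 and 0.998. For NCAM1 they were TOX, TMEM30B and EYA1, each with an r above 0.9999. These values are descriptions over 8 libraries that fall into 2 lines, and the libraries of a line share their cells.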

How the data were processed

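Poly(A)-selected RNA from 8 libraries was sequenced as paired-end reads and processed by the authors against hg38. The aligner, counter, annotation release and strand setting are not given in the sources used here. The authors deposited expected counts per gene (22.4% of the non-zero values are more than 0.01 from a whole number), which were rounded here, and TPM values, scaled per library by length. TPM values were given for 65535 genes and counts for 78691, so results over all genes on TPM leave some genes out. All 10 genes have TPM values. Counts were tested with edgeR 4.0.16 in R 4.3.3 (filterByExpr, TMM, quasi-likelihood, Benjamini-Hochberg over all genes tested), each line separately, the 2 control groups together, and all 4 groups for the difference between lines. An SE is the size of the log2 fold change over the square root of F. The threshold for a call was an adjusted p of 0.05 together with a change of 0.5 on the log2 scale. Alternatives were DESeq2 1.42.0, limma 3.58.1 on log2(TPM + 1) or log2(TPM + 0.1) (genes reaching TPM 1 in 2 libraries, or unfiltered), other normalization, filters, minima and a replicate block, and leaving out each library. No level scaled by length was made here from the counts. Scripts were tested on simulated data. Intervals for count ratios and the floor of 3 counts cover counting error only. Positions are from GENCODE 44, promoters from RefSeq. The 10 genes and the lists were chosen with earlier results of these data known. Genes named are these 10, MYCL, the listed marker genes, the 2 called genes with the largest change per direction in each list and comparison at a mean log2 CPM of at least 1, and the 3 genes most correlated with L1CAM and NCAM1. Some genes that this rule names are not reported here.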

Additional observations from a re-analysis of the deposited data

Results flagged for a closer look

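Of the 5 genes tested in both lines, L1CAM and MCAM stood out because their response to MYCL differed between C4-2B and NCI-H660 cells by a test of the difference itself. For L1CAM the log2 effect of high against low MYCL was larger in C4-2B cells by 2.25 (SE 0.21), and leaving out single libraries gave 2.15 to 2.37. For MCAM it was larger by 3.56 (SE 0.31), with a range of 3.18 to 3.93. Over the settings in which each was tested, the adjusted p went up to 0.0222 for L1CAM and 0.0221 for MCAM, which was not tested when at least 10 counts were required in every library. The starting level, the size and direction of the MYCL change and the vector differ between the lines, and their part in the difference was not tested.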

How the results depend on the processing

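Of 1041 alternative values of single genes, 956 kept their direction and side of the threshold, 69 lost a call, 8 gained a call and 8 changed sign. The sign changed for ST8SIA5 in NCI-H660 on log2(TPM + 1) with and without a filter (-0.022 both times) and log2(TPM + 0.1) (-0.048), for NFASC in the difference between lines on log2(TPM + 1) with and without a filter (-0.013 both times), for L1CAM in NCI-H660 without shCtrl replicate 2 (0.071) or shMYCL replicate 2 (0.037; range over single libraries left out -0.099 to 0.071), and for CNTN1 there without shCtrl replicate 2 (range -0.0017 to 0.19), and the cause was not tested. Leaving out single libraries, between 0 and 1 of the 10 genes was called in NCI-H660 (1 without shCtrl replicate 1), where the lone library left in a group was assumed to vary like the others. With at least 10 counts in every library, 4 of the 10 genes were tested between the control lines, since the others had fewer counts, and all 4 were called. In the difference between lines MCAM had too few counts for that setting, and 1 of the 4 genes tested was called. Over all genes, the calls in C4-2B were 1940 on unfiltered log2(TPM + 1), 5895 with no minimum change and 1411 with a minimum of 1. In NCI-H660 they were 1702 on log2(TPM + 1), 1600 on log2(TPM + 0.1), 1 on unfiltered log2(TPM + 1), 4204 with no minimum and 1022 with a minimum of 1. Between the control lines they were 8934 with at least 10 counts in every library, and in the difference between lines 1898 on unfiltered log2(TPM + 1) and 1666 with a minimum of 1. Same-numbered libraries hardly deviated together (correlations of 0.015 to 0.046), so the numbers were not taken to pair them. With a replicate block, 3, 0, 10 and 2 of the genes were called in C4-2B, in NCI-H660, between the control lines and in the difference between lines, as without it, and 3536, 2949, 13118 and 3576 of all genes. With 2 libraries per group and control counts under 50 for most of these genes in C4-2B, changes below about the width of the printed intervals could not be seen.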
